A study of Homo sapiens with 6 samples.

Results

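The genes described here are the 4 factors of the MiT/TFE family (MITF, TFEB, TFE3 and TFEC) and 6 genes tied to melanosomes or to MITF (RAB38, RAB32, GPR143, GPNMB, PIR and MREG), 10 of the 60691 genes counted in the series. They were found by symbol. RAB38, GPR143 and MITF were chosen by their measured rise in the contrast reported below, so their fold changes are given as a description with no test, while 6 of the other 7 carry the test of the fit over all genes and TFEC had too few reads for it. RNA was sequenced from SW1353, an established human chondrosarcoma line, in 2 groups of 3 biological replicates. All cells were grown in 3% oxygen for 48 h after plating and all had been infected with a lentivirus that expresses a short hairpin RNA (shRNA). The controls, shfirefly, carried a hairpin against firefly luciferase, an insect gene. The other cells, shSIRT1, carried one labelled as directed against the deacetylase SIRT1. Sample names and the design text name SIRT1, whereas the treatment protocol names EPAS1, the gene of HIF-2α. Both mRNAs were lower in the libraries labelled shSIRT1. In counts per 1000000 of the scaled library total (CPM), SIRT1 averaged 24.9 ± 0.984 in shfirefly and 13.6 ± 0.953 in shSIRT1, and EPAS1 456 ± 40.8 and 233 ± 10.5 CPM (SD, n = 3), log2 fold changes of -0.88 ± 0.07 and -0.97 ± 0.06 (SE). Thus "shSIRT1" stands below for the libraries with that label. The series asks how SIRT1 bears on transcription by HIF-2α and on malignancy. One cell line was used, and how many different hairpins were used is not given in the sources used here.

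MITF, TFEB, TFE3 and TFEC are basic helix-loop-helix leucine zipper proteins that bind DNA as dimers, with each other, at E-box sequences. In pigment cells MITF switches on the enzymes and structural proteins of melanosomes, the lysosome-related organelles in which melanin is made, while TFEB and TFE3 drive lysosome and autophagy genes in most tissues and are held in the cytoplasm by the kinase mTORC1 at the lysosomal surface. RAB38 and RAB32 are close relatives among the small GTPases and carry cargo to maturing melanosomes, GPR143 is a melanosomal receptor mutated in ocular albinism, GPNMB is a glycoprotein of melanosomes and lysosomes, MREG (melanoregulin) acts in organelle positioning and pigment transfer, and PIR (pirin) is an iron-binding nuclear protein.

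Promoter sequence is shown for the genes in which a motif of this family, or the cAMP element of the pigment-cell MITF promoter, was found. Sequences are from RefSeq on GRCh38.p14, from 250 bases before to 50 bases after an annotated start. Of the 10 genes, 9 had at least 1 such window, 16 windows in all. RAB38 had no window, so its promoter was not searched. Both strands were searched for the E-boxes CACGTG and CATGTG, for their longer forms TCACGTG and TCATGTG, each of which contains the shorter one, and for the cAMP element TGACGTCA. GPR143 and GPNMB each held CATGTG at 2 places, and all 4 matches were of the TCATGTG form. No other member window held either E-box. Of 35116 windows of the same length, 11.1% held CATGTG, 7.26% CACGTG, 2.92% TCATGTG, 3.71% TCACGTG and 1.85% TGACGTCA, and 0.0968% (34 windows) held TCATGTG at 2 or more places. Capitals mark the matches, which read CACATG on the gene's strand for the E-boxes.
GPR143, chrX:9765798-9766097, reverse strand: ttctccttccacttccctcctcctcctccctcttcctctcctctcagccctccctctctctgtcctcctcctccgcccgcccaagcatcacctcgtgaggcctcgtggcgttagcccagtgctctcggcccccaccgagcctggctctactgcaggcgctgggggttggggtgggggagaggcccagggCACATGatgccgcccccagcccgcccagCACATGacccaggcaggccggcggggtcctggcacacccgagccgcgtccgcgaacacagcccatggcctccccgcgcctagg
GPNMB, chr7:23246525-23246824, forward strand: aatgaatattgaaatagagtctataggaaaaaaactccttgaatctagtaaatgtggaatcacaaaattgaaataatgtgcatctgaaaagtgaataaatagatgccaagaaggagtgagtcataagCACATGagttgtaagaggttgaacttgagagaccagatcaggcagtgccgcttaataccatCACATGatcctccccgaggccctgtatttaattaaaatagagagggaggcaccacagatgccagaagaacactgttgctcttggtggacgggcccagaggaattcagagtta
MITF, chr3:69936342-69936641, forward strand: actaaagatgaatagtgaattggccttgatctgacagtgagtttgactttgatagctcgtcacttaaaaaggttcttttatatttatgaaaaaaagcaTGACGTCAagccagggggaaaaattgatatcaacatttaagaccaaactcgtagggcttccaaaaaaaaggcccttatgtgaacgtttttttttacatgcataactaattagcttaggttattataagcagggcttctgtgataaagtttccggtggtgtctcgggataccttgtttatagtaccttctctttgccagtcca
In GPR143 the matches began 61 and 33 bases before the start, in GPNMB 123 and 62 bases before it, and in MITF the TGACGTCA began 152 bases before it. The MITF window is the one in front of the start of the pigment-cell form, MITF-M. MITF has 2 further windows, at the starts of longer forms, and reads were counted per gene, so the values below do not separate the forms. A match is a description of letters and not evidence of binding.

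The total counts were 24993064 to 32044191 per library. Of 16591 genes tested, 52.8% passed at an adjusted p under 0.05, 26.8% higher and 26.0% lower in shSIRT1, and 59.7% had ranges of CPM that did not overlap between the groups. Without TMM scaling, which corrects for composition, the split moved from 4449 higher and 4311 lower to 6225 and 3021, and the median log2 fold change of all genes stood at 0.13 in place of 0.00. Of the 10 members 9 were tested, since TFEC had too few reads. Among the 6 tested members that were not picked for their rise, 2 rose (PIR and MREG), 1 fell (GPNMB) and 3 did not pass (TFEB, TFE3 and RAB32), so the share called, 3 of 6, lies near the background. Of these 6 members, 4 had ranges that did not overlap, beside 59.7% of all tested genes. The 3 picked genes were chosen for their rise and are left out of these counts.

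**Figure D1:**
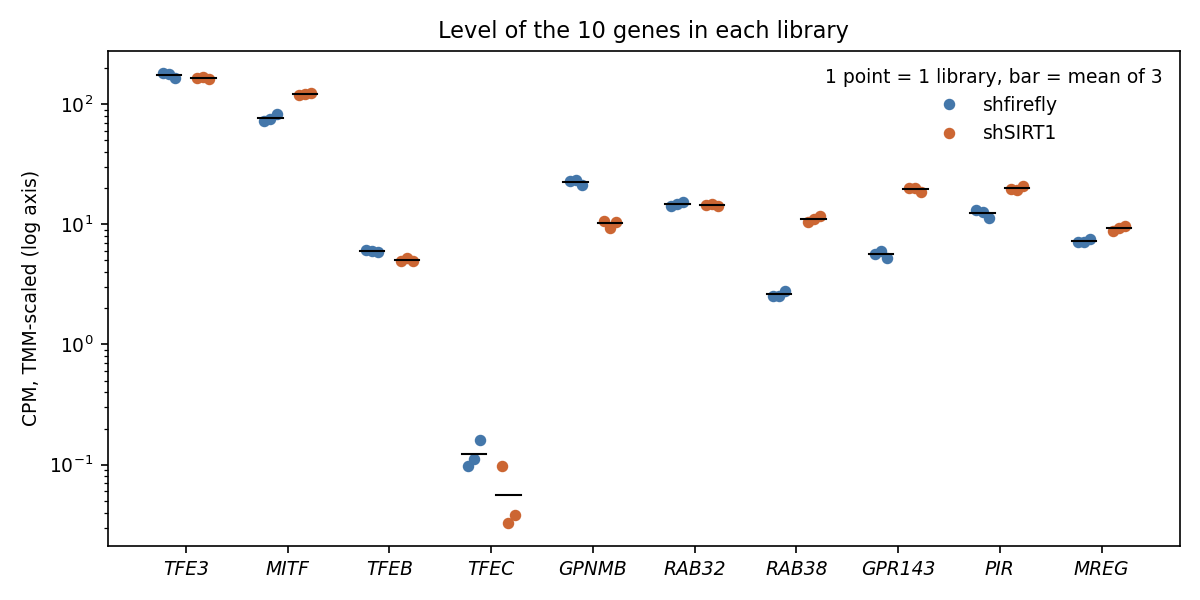
CPM (TMM-scaled, log axis) of each gene in each library, with 1 point per library and a bar at the mean of 3. RAB38 and GPR143 sit apart by group in one direction and GPNMB in the other, while the points of TFE3 and RAB32 overlap between groups.

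MITF was the second most abundant of the 4 factors and the one that was higher in shSIRT1. It stood at 72.1, 75.8 and 82.01 CPM in shfirefly replicates 1 to 3 and at 119.6, 121 and 123 CPM in shSIRT1. Every shSIRT1 library was above every control library, and the means of 76.6 ± 4.99 and 121 ± 1.55 CPM (SD, n = 3) gave a 1.58-fold higher level (log2 fold change 0.66 ± 0.05 SE). The gene, on chromosome 3 (69739435 to 69968337, forward strand, 18 transcripts in GENCODE 29), ranked 1194 among 16591 by size of rise. Of the tested genes, 92.8% had a lower log2 fold change than MITF, and many still rose more. The log2 fold change was 0.78 with library totals alone and 0.57 with an offset for GC content and length of the transcript.

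TFE3, the most abundant of the family and a driver of lysosomal genes, had 181, 179 and 166 CPM in shfirefly and 165, 168 and 161 CPM in shSIRT1. The highest shSIRT1 library was above the lowest control library, so the groups overlapped. It did not pass, with a log2 fold change of -0.09 ± 0.04 (SE; edgeR adjusted p = 0.075). The sign depended on the scaling, with 0.03 with library totals alone (adjusted p = 0.47) and 0.03 with the GC and length offset (adjusted p = 0.54), and the gene passed without shfirefly replicate 3 (-0.14, adjusted p = 0.0055), with the replicate number as a block (adjusted p = 0.03) and with a filter of 1 CPM in 3 libraries (adjusted p = 0.045). TFEB, its close relative, was much scarcer. It had 6.16, 5.99 and 5.87 CPM in shfirefly and 4.95, 5.25 and 4.93 CPM in shSIRT1. These ranges did not overlap, yet the gene missed the threshold (log2 fold change -0.25 ± 0.12 SE, edgeR adjusted p = 0.074), and spreads within both groups were below what counting error alone gives (2.37% against 7.51% in shfirefly). TFEC, a factor of macrophages and osteoclasts, had 3, 3 and 5 counts in shfirefly and 3, 1 and 1 in shSIRT1. The ratio of counts over scaled library size was 0.461 (95% exact interval 0.126 to 1.44, counting error only). At this depth a difference in TFEC was not detectable.

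Per kilobase of exon, which allows levels of different genes to be compared, TFE3 made up most of the family mRNA in every library. Of the summed MiT/TFE level (CPM per kb of the union of annotated exons), TFE3 held 77.6% ± 1.82 in shfirefly and 68.4% ± 0.649 in shSIRT1, MITF 20.3% ± 1.81 and 30.0% ± 0.668, and TFEB 2.02% ± 0.0305 and 1.59% ± 0.0381 (SD, n = 3). TFEC held 0.0272% and 0.0116%. The summed level was 51.1 to 53.4 CPM per kb in shfirefly and 55.5 to 56.95 in shSIRT1, ranges that did not overlap. The ratio of MITF to TFE3 per kb was 0.238, 0.252 and 0.295 in the control libraries and 0.431, 0.43 and 0.455 in shSIRT1. This ratio was higher in each shSIRT1 library than in any control, and a ratio within a library does not depend on how libraries are scaled. Since MITF was chosen by its rise, these shares are a description.

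**Figure D2:**
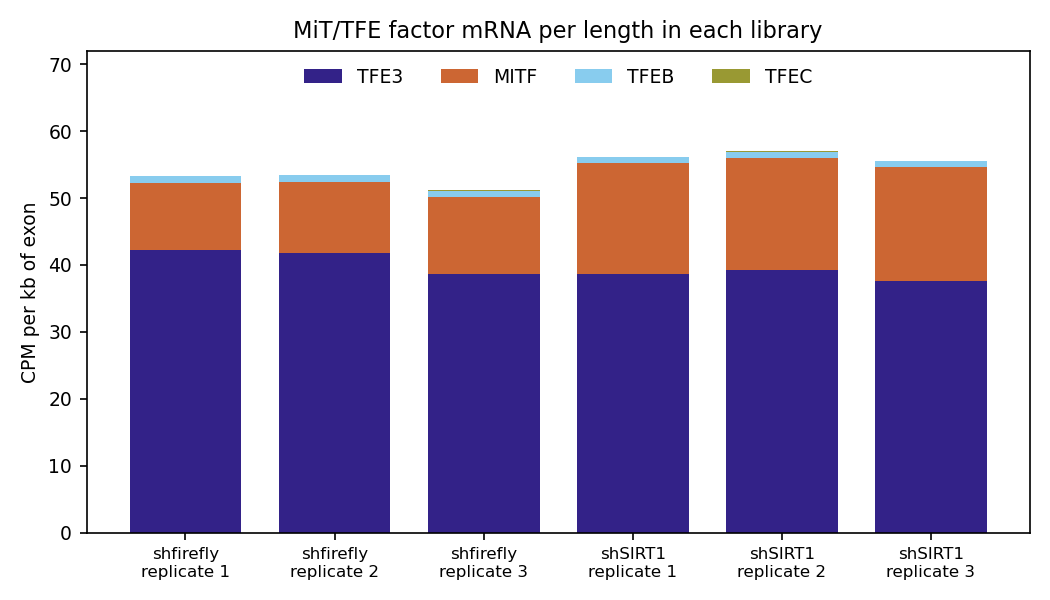
Stacked CPM per kb of exon of the 4 MiT/TFE factors in each library. The MITF segment is taller in the 3 shSIRT1 libraries (16.7 to 17.1) than in the 3 control libraries (10.05 to 11.4), TFE3 is the tallest in all 6, and TFEC is too small to see.

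RAB38, the melanosome cargo GTPase, had the largest fold change of the 10 genes and started from a low level. It was at 2.54, 2.55 and 2.77 CPM in shfirefly (78, 69 and 86 counts) and at 10.4, 11.1 and 11.7 CPM in shSIRT1 (320, 339 and 306 counts). The lowest shSIRT1 library was over 3 times the highest control. The means were 2.62 ± 0.132 and 11.1 ± 0.63 CPM (SD, n = 3), a 4.20-fold difference (log2 fold change 2.07 ± 0.12 SE), and the gene ranked 37 of 16591 by rise. RAB32, which shares most of its known partners with RAB38, behaved otherwise. It had 14.3, 14.7 and 15.2 CPM in shfirefly and 14.5, 14.6 and 14.2 CPM in shSIRT1, overlapping ranges and the log2 fold change was -0.03 ± 0.08, short of the threshold (adjusted p = 0.76, edgeR quasi-likelihood test). Its sign turned to 0.09 with library totals alone and to 0.10 with the GC and length offset, neither of which passed. Per kb of exon, RAB38 stood at 0.148, 0.144 and 0.152 of the RAB32 level in the control libraries and at 0.599, 0.629 and 0.685 in shSIRT1. RAB32 was the more abundant of the pair in all 6 libraries. RAB38 lies on chromosome 11 (88113242 to 88175467, reverse strand), and the annotated genes that overlap it, AP005436.2 and AP001642.1, had no counts. RAB32 lies on chromosome 6 (146543693 to 146554965, forward strand) and overlaps no annotated gene.

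GPR143, the melanosomal receptor, had 5.67, 5.96 and 5.29 CPM in shfirefly and 20.2, 20.1 and 18.5 CPM in shSIRT1. No shSIRT1 library came near the controls: the means were 5.64 ± 0.333 and 19.6 ± 0.936 CPM (SD, n = 3), a 3.48-fold difference (log2 fold change 1.80 ± 0.09 SE, rank 59 of 16591 by rise). The gene lies on chromosome X (9725346 to 9786297, reverse strand) and overlaps TBL1X on the other strand. TBL1X had 95.3 ± 3.74 CPM in shfirefly and 99.1 ± 1.83 in shSIRT1 (SD, n = 3; a log2 change of 0.06 ± 0.04 SE, edgeR adjusted p = 0.26). Whether counting used the strand is not given in the sources used here.

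GPNMB, the glycoprotein whose window holds the same pair of TCATGTG letters as that of GPR143, went the other way. It fell from 23.03, 23.4 and 21.4 CPM in shfirefly to 10.7, 9.33 and 10.5 CPM in shSIRT1. Every shSIRT1 library was far below the lowest control. The means of 22.6 ± 1.08 and 10.2 ± 0.737 CPM (SD, n = 3) differed 2.22-fold (a log2 change of -1.15 ± 0.08 SE, edgeR adjusted p = 1.3e-10). Its log2 fold change lay between -1.20 and -1.03 over all 13 alternatives. It was the only member that fell and passed, and 3.32% of tested genes had a lower log2 fold change. GPNMB lies on chromosome 7 (23235967 to 23275108, forward strand) and overlaps no annotated gene.

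PIR, the nuclear iron-binding protein gene, rose from 13.1, 12.8 and 11.2 CPM in shfirefly to 19.8, 19.1 and 20.7 CPM in shSIRT1. The ranges were well apart, and the means of 12.35 ± 0.984 and 19.9 ± 0.78 CPM (SD, n = 3) gave a 1.61-fold higher level (log2 fold change 0.69 ± 0.08 SE, edgeR adjusted p = 2.8e-07). PIR lies on chromosome X (15384799 to 15493564, reverse strand), and BMX, which overlaps it on the other strand, had 2 counts in all 6 libraries together. MREG, the organelle positioning gene, rose less, from 7.13, 7.1 and 7.48 CPM to 8.83, 9.39 and 9.7 CPM. The ranges did not overlap, and the means of 7.24 ± 0.212 and 9.31 ± 0.442 CPM (SD, n = 3) gave a 1.28-fold higher level (log2 fold change 0.36 ± 0.10 SE, edgeR adjusted p = 0.0041). MREG lies on chromosome 2 (215942805 to 216034096, reverse strand) and overlaps PECR on the same strand, a peroxisomal reductase gene that also rose, from 11.96 ± 0.356 to 14.2 ± 0.784 CPM (SD, n = 3; a log2 change of 0.25 ± 0.08 SE, adjusted p = 0.014). Reads of the shared stretch could belong to either, and their part in the MREG result was not tested. PIR and MREG kept their direction and passed under every alternative run.

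**Figure D3:**
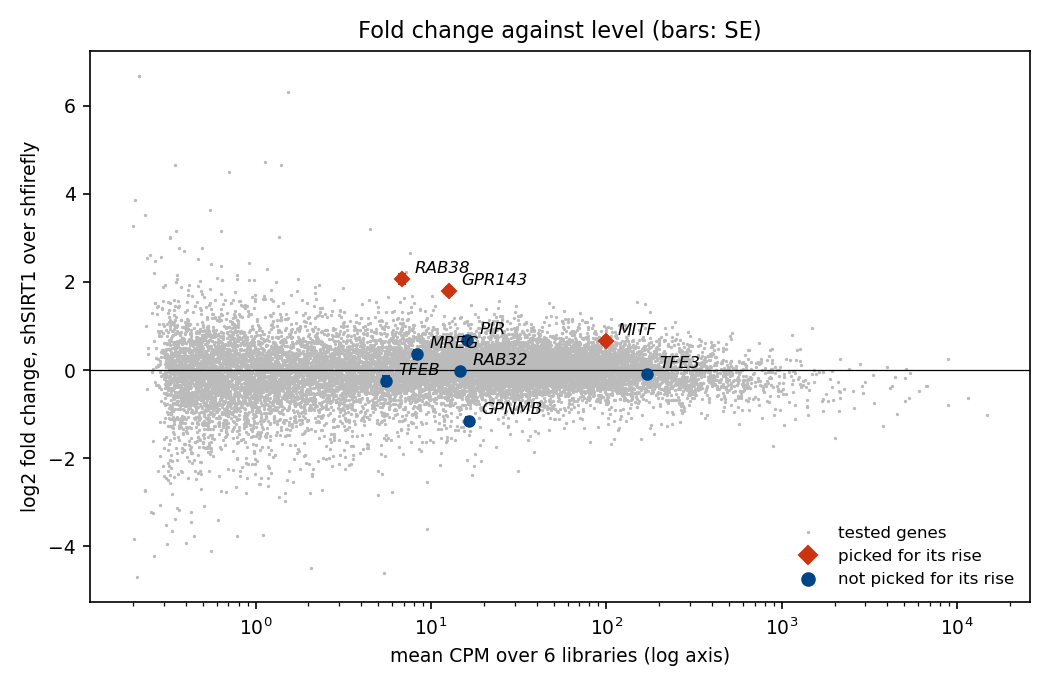
Log2 fold change (shSIRT1 over shfirefly) against mean CPM over 6 libraries (log axis) for all tested genes (grey), with the 9 tested members named and bars of 1 SE. RAB38 and GPR143 lie near the top edge of the cloud at 2.07 and 1.80. GPNMB lies in its lower part at -1.15, and TFE3 and RAB32 lie beside 0.

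On the per-kilobase scale the order of levels in shfirefly was TFE3 (40.9 CPM per kb), RAB32 (12.1), MITF (10.7), PIR (4.92), GPNMB (3.74), MREG (2.37), GPR143 (2.27), RAB38 (1.79), TFEB (1.06) and TFEC (0.0143). The ranges of MREG and GPR143 overlapped, and those of the other neighbours in this order did not. In shSIRT1 it was TFE3 (38.4 CPM per kb), MITF (16.9), RAB32 (11.8), PIR (7.905), GPR143 (7.89), RAB38 (7.55), MREG (3.05), GPNMB (1.69), TFEB (0.893) and TFEC (0.0065). The ranges of PIR, GPR143 and RAB38 overlapped there. MITF and RAB32 changed places between the groups, but with the longest transcript in place of the exon union MITF was already above RAB32 in shfirefly (15.9 against 12.1 CPM per kb), so that order depends on the length used. The same change of length put TFEB (2.31 CPM per kb) above RAB38 (1.79) in shfirefly, and in shSIRT1 it put PIR (12.9) above RAB32 (11.8) and GPNMB level with MREG (3.56 for each).

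Genes that control where the MiT/TFE factors sit in the cell moved in both directions. Of 25 tested, 4 rose (16%), 8 fell (32%) and 13 did not pass, beside 26.8% higher and 26.0% lower of all tested genes. The share called, 48%, lies near the 52.8% of all tested genes. The median log2 fold change was -0.08 beside 0.00 for all tested genes. With library totals alone the counts were 8 higher and 5 lower, so the balance turned with the scaling. The nuclear export receptor XPO1 rose from 345 ± 11.8 to 477 ± 6.28 CPM (SD, n = 3) and MTOR, the kinase of mTORC1, from 72.9 ± 3.12 to 100.05 ± 3.53 CPM (adjusted p = 2.3e-08 or lower for both, edgeR quasi-likelihood test). Folliculin (FLCN), which acts on the RagC and RagD GTPases and thereby on the phosphorylation of TFEB and TFE3, fell from 28.3 ± 1.80 to 19.2 ± 0.982 CPM, and RRAGD, a lysosomal GTPase gene and a known target of the family, from 4.17 ± 0.717 to 2.77 ± 0.181 CPM (SD, n = 3; adjusted p = 0.004 or lower).

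Among 17 genes that act upstream of MITF in pigment cells, 13 were tested (median log2 fold change 0.04). Of these 5 rose (38.5%), 2 fell (15.4%) and 6 did not pass, beside 26.8% higher and 26.0% lower of all tested genes. The share called, 53.8%, lies near the 52.8% of all tested genes. With the GC and length offset 5 rose and 4 fell. Both that fell are transcriptional repressors induced by low oxygen. BHLHE40 (DEC1), described as a repressor of MITF, fell from 447 ± 5.10 to 301 ± 9.35 CPM (log2 fold change -0.57 ± 0.04 SE) and BHLHE41 from 125 ± 4.25 to 64.0 ± 2.59 CPM (SD, n = 3; a log2 change of -0.97 ± 0.04 SE, edgeR adjusted p = 2.6e-11 or lower for both). GLI2 (log2 fold change 0.39 ± 0.08 SE) and the neural crest factor gene TFAP2A (0.34 ± 0.07 SE) were the members with at least 1 CPM that rose the most. SOX10, the main activator of MITF in melanocytes, had no counts in any library, which allows up to 0.0968 to 0.115 CPM (3 counts per library, counting error only). PAX3 had 18 counts in shfirefly and 17 in shSIRT1.

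**Figure D4:**
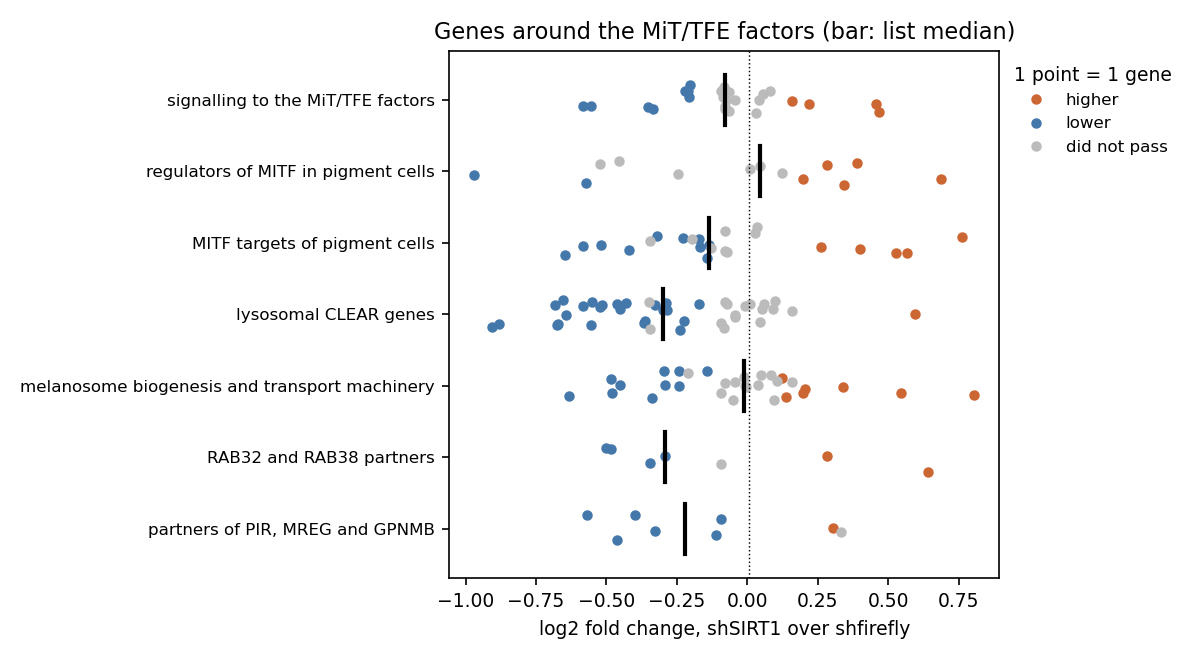
Log2 fold change (shSIRT1 over shfirefly) of the tested genes of 7 lists, coloured by call, with a bar at each list median and a dotted line at the median of all tested genes. The lysosomal CLEAR list (-0.30), the RAB32 and RAB38 partners (-0.29) and the partners of PIR, MREG and GPNMB (-0.22) have the lowest medians. The lists of MITF regulators and of melanosome machinery lie close to the dotted line.

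Targets of the family did not move as 1 block. Of 31 genes described as MITF targets in pigment cells, 23 were tested (median log2 fold change -0.14). Of these 5 rose (21.7%), 10 fell (43.5%) and 8 did not pass, beside 26.8% higher and 26.0% lower of all tested genes. With library totals alone 7 rose and 4 fell. Those that rose included DICER1, the microRNA-processing enzyme (log2 fold change 0.76 ± 0.07 SE), and the survival gene BCL2 (0.57 ± 0.12 SE; adjusted p = 0.00029 or lower for both, edgeR quasi-likelihood test). The adhesion gene CEACAM1 fell by 0.65 on the log2 scale (adjusted p = 0.019) but lost the call without shfirefly replicate 1 (adjusted p = 0.11), without shSIRT1 replicate 2 (adjusted p = 0.12) and in DESeq2 (adjusted p = 0.055), among others. The lysosomal genes of the CLEAR network, described as targets of TFEB and TFE3, were mostly lower. Of 41 tested, 24 fell, 1 rose and 16 did not pass (58.5% lower, beside 26.0% of all tested genes), with a median log2 fold change of -0.30. With library totals alone 22 fell and 8 rose, and with the GC and length offset 25 fell and 5 rose. The acid alpha-glucosidase gene GAA fell from 52.4 ± 2.70 to 27.9 ± 1.93 CPM and the cathepsin gene CTSF from 8.11 ± 0.382 to 4.41 ± 0.467 CPM (SD, n = 3; adjusted p = 1.7e-06 or lower for both). VPS18, a subunit of the tethering complexes that fuse endosomes and lysosomes, was the member that rose (log2 fold change 0.60 ± 0.07 SE, adjusted p = 1.1e-07).

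Genes were also grouped by the E-boxes in their promoter windows, regardless of function. Of 11141 tested genes with a RefSeq window, 31.2% rose and 27.4% fell. Of the 286 with TCATGTG in a window, 27.3% rose and 34.3% fell (median log2 fold change -0.05), and of the 772 with TCACGTG 31.9% rose and 29.7% fell (median 0.03). Of the 12 with TCATGTG at 2 or more places in 1 window, GPR143 and GPNMB among them, 2 rose and 4 fell. GPR143 was picked for its rise and is counted among those that rose, both here and in the 286.

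The sorting and transport machinery of melanosomes, most of which serves lysosome-related organelles in many cells, was measured widely. Of 34 genes 31 were tested, of which 7 rose, 10 fell and 14 did not pass (median log2 fold change -0.01), and with library totals alone 10 rose and 7 fell. LYST, the Chediak-Higashi gene that sets the size of lysosome-related organelles, rose from 16.5 ± 1.34 to 28.8 ± 1.05 CPM and the lipid kinase gene PIKFYVE from 36.8 ± 3.66 to 53.7 ± 2.09 CPM (SD, n = 3; adjusted p = 4.6e-07 or lower for both, edgeR quasi-likelihood test). RAB17, a GTPase of melanosome release, had a log2 fold change of -0.63 ± 0.14 (SE, adjusted p = 0.00051). VAMP7 is listed at 0, and whether its reads were lost in mapping or counting was not tested. MLPH, the melanophilin gene, had 9 counts in shfirefly and 0 in shSIRT1. Among the partners of RAB32 and RAB38, 7 of 8 were tested, 2 rose and 4 fell (median log2 fold change -0.29). Over all tested genes 26.8% rose and 26.0% fell. HPS1 and HPS4, the subunits of the exchange factor BLOC-3 that activates both GTPases, fell with log2 fold changes of -0.48 ± 0.06 and -0.29 ± 0.06 (SE), and so did SGSM2, a GTPase-activating protein for them (-0.50 ± 0.04 SE), and RAB29, the third GTPase of the subfamily (-0.35 ± 0.06 SE). The genes that rose encode regulatory subunits of protein kinase A, PRKAR2B (0.64 ± 0.07 SE) and PRKAR2A (0.28 ± 0.04 SE). All 6 had an adjusted p of 0.00013 or lower. Of 8 proteins described as binding PIR, MREG or GPNMB, 6 fell and 1 rose (median log2 fold change -0.22). With the GC and length offset 4 fell and 2 rose. Neither of these short partner lists was tested against the shares over all tested genes. NFIX, a nuclear factor that binds pirin, had a log2 fold change of -0.57 ± 0.04 (SE), RELA, the NF-κB subunit, -0.46 ± 0.05 (SE), and NFKB1 0.30 ± 0.05 (SE; adjusted p = 4.8e-05 or lower for the 3).

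Several genes that define pigment cells were at or near 0 in the same libraries. Of 12 such markers, TYR (tyrosinase) and SOX10 had no counts in any library, MLANA had 0 in shfirefly and 2 in shSIRT1, TYRP1 17 and 13, SLC45A2 2 and 4, SLC24A5 2 and 2, TRPM1 3 and 5, and S100B 19 and 28. Only OCA2, DCT, PMEL and MC1R had enough reads to be tested. OCA2, a melanosomal chloride channel gene, fell from 7.65 ± 0.293 to 4.52 ± 0.132 CPM (SD, n = 3; a log2 change of -0.76 ± 0.11 SE, edgeR adjusted p = 6.6e-06). DCT (log2 fold change 0.24), PMEL (-0.35) and MC1R (-0.52) did not pass. The 12 markers summed to 12.3 to 13.6 CPM in shfirefly and to 8.42 to 9.62 CPM in shSIRT1. In bulk RNA, fewer cells that express a gene and less of its RNA per cell cannot be told apart.

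Macrophages and osteoclasts also express MITF, TFEC and GPNMB, and several of their defining markers were at or near 0. Of 11 markers, TYROBP, DCSTAMP and OCSTAMP had no counts, PTPRC had 8 counts in shfirefly and 4 in shSIRT1, and SPI1 4 and 0. The list summed to 27.2 to 30.2 CPM in shfirefly and to 18.03 to 20.6 CPM in shSIRT1. Of its 5 tested genes 4 fell, beside 26.0% of all tested genes, a difference that was not tested. The 4 included CSF1R, a growth factor receptor gene (log2 fold change -0.90 ± 0.11 SE, edgeR adjusted p = 3.9e-07), and OSCAR (-1.22 ± 0.27 SE, edgeR adjusted p = 0.0007). GPNMB was lower in the same libraries, and any link between its fall and that of these genes was not tested. Of 13 cartilage markers 5 were tested, 2 rose and 2 fell, beside 26.8% higher and 26.0% lower of all tested genes. The cartilage list summed to 55.7 to 62.3 CPM in shfirefly and to 63.2 to 64.98 CPM in shSIRT1. SOX9, the master regulator of chondrocytes, was present at 43.7 ± 2.54 CPM in shfirefly and 53.1 ± 1.17 CPM in shSIRT1, and the proteoglycan gene ACAN at 1.51 ± 0.27 and 0.679 ± 0.194 CPM (SD, n = 3). HAPLN1, which links proteoglycans to hyaluronan, fell from 8.08 ± 0.633 to 4.28 ± 0.529 CPM (edgeR adjusted p = 1.9e-06). The matrix gene MATN3 passed as higher (log2 fold change 0.35 ± 0.13 SE, edgeR adjusted p = 0.032) but lost the call in 6 of 13 alternatives, namely DESeq2 (adjusted p = 0.13), no filter (0.051), and without shfirefly replicate 1 (0.1) or 3 (0.085) or shSIRT1 replicate 2 (0.11) or 3 (0.066). COL2A1, the defining cartilage collagen, had 3 counts in shfirefly and 30 in shSIRT1, and COL9A1 and CNMD had none, so several genes that define cartilage cells were at or near 0 in this chondrosarcoma line.

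Genes with a pattern over the 6 libraries nearest to the picked members were sought among 13752 genes that averaged 1 CPM or more. Nearness was the root mean square difference of log2 CPM, centred over both groups. Such a pattern holds the group difference for which these members were picked. Nearest to MITF were the splicing factor gene SRSF2 (0.0126), the GTPase gene RAB23 (0.0262) and RBM14 (0.0267). Nearest to RAB38 were LIN28B (0.147), an RNA-binding protein gene, the sulfotransferase gene CHST7 (0.148) and the long non-coding RNA LNCAROD (0.148), and nearest to GPR143 were CHST7 (0.107), the homeobox gene RHOXF2 (0.134) and the tight-junction gene CLDN4 (0.137). The log2 fold changes of these genes were 0.61 to 0.69 for those near MITF, 1.79 to 1.93 near RAB38 and 1.63 to 1.79 near GPR143. RAB38 and GPR143 had no neighbour as close as those of MITF. Both have far fewer counts and larger fold changes than MITF, and the cause was not tested.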

How the data were processed

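A single deposited table gives raw counts of reads for each gene, whole numbers that the authors did not normalize, per the file headers. Normalized counts, rounded by the authors and read here as a score, are deposited beside them and entered no test. Trimmomatic, STAR, DESeq2 and GRCh38 are listed in the submitters' processing notes. The read counter, tool versions, annotation and strand setting are not given in the sources used. Columns were matched to samples by name.

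From the counts, genes were kept by filterByExpr (16591 tested), scaled by TMM and tested with edgeR 4.0.16 (estimateDisp, robust glmQLFit, glmQLFTest, group alone), with Benjamini-Hochberg adjustment over all genes tested and a threshold of 0.05. "Rose" and "fell" mean past that threshold. SE is the absolute log2 fold change over the square root of F. CPM uses TMM-scaled library sizes. No pair of libraries agreed within counting noise (chi-square per gene 2.82 to 6.10 within groups). Gene positions and exon lengths are from GENCODE 29, matched by Ensembl identifier, and 6 of the 10 members overlap another annotated gene. The procedure was tested on simulated counts.

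The members and the 10 gene lists were chosen with earlier results of these data known. Named genes are the members, SIRT1, EPAS1 and BHLHE40; in each list the 2 genes that rose most and the 2 that fell most among those called, where they averaged 1 CPM or more; the nearest patterns; and markers. Others, among them TBL1X, PECR, HPS4, RAB29 and the neighbours of members, were named after their values were seen, and the promoter motifs were chosen after the tests. Alternatives were RLE factors, library totals alone, DESeq2 1.42.0, 2 other filters, the replicate number as a block, an offset for GC content and length (natural splines, 5 degrees of freedom), and leaving out each library.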

Additional observations from a re-analysis of the deposited data

How the results depend on the processing

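Over the 13 alternatives, GPNMB, PIR and MREG kept their direction and their call, and MITF, RAB38 and GPR143 kept their direction (log2 fold changes of 0.57 to 0.78, 2.03 to 2.19 and 1.75 to 1.93). TFE3 and RAB32 turned sign with library totals alone (0.0336 and 0.0897) and with the GC and length offset (0.0319 and 0.095); the cause was not tested. Members not picked for their rise that fell numbered 2 in place of 1 with the replicate block and with the filter of 1 CPM in 3 libraries, and 1 to 2 when a library was left out, TFE3 being the added gene in each. With library totals alone, signalling genes were 8 higher and 5 lower, MITF targets 4 lower and CLEAR genes 8 higher. With the GC and length offset, MITF regulators were 4 lower, CLEAR genes 5 higher and partners of PIR, MREG and GPNMB 2 higher. Deviations of same-numbered libraries correlated at -0.01, -0.07 and 0.13, and those of the other pairs at -0.15 to 0.17. With 3 libraries per group, centred within the group, these values cannot tell whether the replicate numbers pair the libraries. The replicate block moved the genes called from 4449 higher and 4311 lower to 4711 higher and 4465 lower. TFEC could not be tested under the filter, and without it had an adjusted p of 0.54 in edgeR. Depth limits TFEC, TYR, SOX10 and the other pigment markers with few counts.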

Other observations

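The nearest tested genes on either side of a member were read as values only, and were chosen after those of the members were known. SHROOM2, an actin-binding protein gene on the other strand, lies head to head with GPR143 on chromosome X. It starts 159 bases beyond the outermost GENCODE 5′ end of GPR143 (9786297). The RefSeq window of GPR143 searched for motifs (9765798 to 9766097) lies at another start, inside the gene. That window is thus not the stretch between GPR143 and SHROOM2. SHROOM2 rose from 21.97 to 45.6 CPM (log2 fold change 1.05 ± 0.06 SE, edgeR adjusted p = 1e-11). TBL1X, on the other side of GPR143, had a log2 fold change of 0.06 and did not pass. CHORDC1, a chaperone-associated protein gene and the nearest tested gene after RAB38, 2025693 bases away, rose by 1.07 on the log2 scale (adjusted p = 1.5e-10), and TMEM135 before it had -0.24 and did not pass (adjusted p = 0.058). The neighbours of MITF, FRMD4B and FOXP1, had log2 fold changes of -0.25 (adjusted p = 0.25) and -0.22 (adjusted p = 0.037). FN1, the fibronectin gene before MREG, had a log2 fold change of -1.03 (adjusted p = 1.5e-09) where MREG had 0.36.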
